A study of Mus musculus with 4 samples.

Results

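The 28 genes described here encode enzymes and regulators of cholesterol and fatty acid synthesis, and they were taken by symbol from the 31053 genes of the count matrices, where each symbol stood for 1 gene. They comprise 7 genes of the mevalonate branch (Acat2, Hmgcs1, Mvk, Pmvk, Mvd, Idi1, and Fdps), 11 genes of the steps from squalene to cholesterol (Fdft1, Sqle, Lss, Cyp51, Tm7sf2, Msmo1, Nsdhl, Hsd17b7, Ebp, Sc5d, and Dhcr7), 4 genes of regulation and transport (Srebf1, Srebf2, Insig1, and Stard4), and 6 genes of fatty acid synthesis (Acly, Acaca, Fasn, Elovl6, Scd1, and Scd2). All 28 passed the filter on low counts in each of the 20 comparisons below. Cells were GFP-positive cells sorted from lumbar dorsal root ganglions (DRGs) of heterozygous Pirt EGFPf mice on a C57BL/6 background, aged 7 to 8 weeks, in which a membrane-bound enhanced GFP replaces the reading frame of Pirt and is driven by the Pirt promoter, which is active in most DRG neurons. Both sciatic nerves of a mouse were loosely ligated (chronic constriction injury, CCI) or the mouse had sham surgery, and single-cell RNA sequencing was done at day 7. Of the 4 libraries, Male-Sham and Female-Sham came from sham mice and Male-CCI and Female-CCI from injured mice, and each pooled 20 DRGs of 5 mice. Replicates of a surgery were its male and its female library (n = 2 libraries per surgery). The p-values of CCI against sham therefore rest on the spread between pooled libraries and not between mice. Comparisons of neuron groups within the CCI libraries used library as a block and rest on differences within 2 libraries. In all tests the estimate of spread also drew on the other genes. Littermates of both sexes received the same surgery, and an effect of litter cannot be told apart from that of surgery.

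Cells make cholesterol from acetyl-CoA through the mevalonate branch, which yields farnesyl pyrophosphate, and then through squalene and a series of sterol intermediates. Fatty acids share the same precursor and are built by Acaca and Fasn, lengthened by Elovl6, and desaturated by the Scd enzymes. Most genes of both pathways are transcribed under SREBP factors, encoded by Srebf1 and Srebf2, which Insig1 holds in the endoplasmic reticulum when sterols are abundant. Glial cells are known for high lipid synthesis in the nervous system, and axon growth needs new membrane.

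The sequences upstream of some of these genes are shown because SREBP acts at promoters together with the factors NF-Y and Sp1. The promoter table of RefSeq (GRCm38.p6), with 250 bases before and 50 bases after each start, held 22 of the 28 genes. Fdps, Fdft1, Sqle, Stard4, Scd1, and Scd2 had no entry. The NF-Y motif CCAAT was found on either strand in 19 of 22 genes (86.4%), against 41.1% of all 27025 genes in the table. The Sp1 motif GGGCGG was found in 18 (81.8%), against 38.2%, and both motifs in 17 (77.3%), against 14.5%. The SREBP motif TCACNCCAC was found only in Hmgcs1 among these 22 genes (4.55%), against 1.44% of all genes. A match is a description of letters and not evidence of binding. The 150-base windows below belong to Hmgcs1, Idi1, Msmo1, and Insig1, of which Hmgcs1, Idi1, and Msmo1 were lower in glial cells after CCI under each setting tried, and to Hsd17b7, which of the 28 genes had the largest increase in Sprr1a+ against Sprr1a- neurons of CCI. The window of Insig1 takes the first 150 of the 250 upstream bases, which held all of its motif matches, whereas the other 4 windows end at the start site. Capitals mark the 3 motifs on either strand, and each window is written 5′ to 3′ on the strand of the gene. The windows are chr13:119690201-119690350 (plus strand) for Hmgcs1, chr13:8885456-8885605 (plus) for Idi1, chr8:64733579-64733728 (minus) for Msmo1, chr5:28071162-28071311 (plus) for Insig1, and chr1:169969206-169969355 (minus) for Hsd17b7.
Hmgcs1: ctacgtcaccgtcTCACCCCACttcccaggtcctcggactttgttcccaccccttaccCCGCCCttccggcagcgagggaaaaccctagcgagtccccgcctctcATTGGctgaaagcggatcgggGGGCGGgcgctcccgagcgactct
Idi1: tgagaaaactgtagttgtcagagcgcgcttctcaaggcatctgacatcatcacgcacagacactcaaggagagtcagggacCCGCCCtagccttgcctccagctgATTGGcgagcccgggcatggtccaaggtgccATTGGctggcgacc
Msmo1: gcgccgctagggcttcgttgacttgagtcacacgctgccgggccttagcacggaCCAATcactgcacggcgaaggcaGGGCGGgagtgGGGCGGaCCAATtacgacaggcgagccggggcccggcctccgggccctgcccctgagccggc
Insig1: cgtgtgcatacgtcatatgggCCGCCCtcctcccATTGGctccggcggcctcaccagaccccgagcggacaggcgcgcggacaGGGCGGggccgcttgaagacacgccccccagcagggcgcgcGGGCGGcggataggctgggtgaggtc
Hsd17b7: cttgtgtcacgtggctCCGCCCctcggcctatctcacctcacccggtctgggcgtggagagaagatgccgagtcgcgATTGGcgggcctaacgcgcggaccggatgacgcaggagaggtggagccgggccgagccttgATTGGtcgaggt
The coordinates are those of RefSeq for the reference genome, and none was read from the libraries.

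After doublets and low-quality cells were removed, 2947 to 5548 cells remained per library, with a median of 31941.5 to 55255 unique molecular identifiers (UMIs) per cell. Any 2 libraries shared 215 to 513 barcodes as deposited and at most 6 among the cells kept. Neurons were Sprr1a+ when the normalized UMI value of Sprr1a, a marker of injured neurons, was above 1. This held for 1.28% and 2.67% of neurons in Male-Sham and Female-Sham, and for 52.1% and 49.2% in Male-CCI and Female-CCI. Neuron clusters were named from marker genes as NP-like (nonpeptidergic), PEP-like (peptidergic), NF-like (neurofilament), cLTMR-like (low-threshold mechanoreceptors with C-fibers), and CCI-ind-like, from markers of injured neurons. A cluster of 558 cells had all 8 markers of satellite glial cells (SGCs), with Apoe leading and Cxcl10, a chemokine gene, also among its 10 leading genes. It held 186, 145, 118, and 109 cells in the libraries, where this and every series of 4 values below gives the male and female sham libraries first and the male and female CCI libraries last. SGC-like cells had a median of 5125, 4188, 5160, and 4416 UMIs, far fewer than neurons. Levels are given as CPM, the UMIs of a gene per 1000000 summed UMIs of a class in a library. Each UMI stands for 1 transcript end, so the values were not divided by gene length, and levels are compared within a gene or as a sum over the same genes. Reads of Acat2 and Acat3, and of the Scd1 to Scd4 genes, may be divided between similar sequences, and these levels are uncertain to that extent.

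As a share of the UMIs of a class, the genes were most abundant in SGC-like cells of sham mice. Amounts per cell were not compared, and SGC-like cells held far fewer UMIs than neurons. Summed over the 18 sterol enzymes, the level was 8214 and 7886 CPM in SGC-like cells of Male-Sham and Female-Sham, against 2417 and 2518 CPM in all neurons. Fatty acid synthesis genes summed to 4574 and 4487 CPM in SGC-like cells and to 1257 and 1273 CPM in neurons. Taking the mean of both sham libraries, 27 of 28 genes were higher in SGC-like cells than in neurons, 20 of them over 2-fold, and 26 were higher in SGC-like cells than in any neuron class. The exceptions were Ebp, a sterol isomerase, which was highest in cLTMR-like neurons (131 CPM against 107 CPM), and Acly, which makes cytosolic acetyl-CoA, which was highest in PEP2-like neurons (356 CPM) and at 170 CPM in SGC-like cells. The ratio of SGC-like cells to neurons was highest for Lss (9.25), which closes the sterol rings, and was 6.45 for Insig1, 6.41 for Cyp51, and 5.57 for Srebf1. These are descriptions, since the clusters were made from the same cells.

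Neuron classes differed less. PEP2-like neurons had the highest sterol enzyme sum among named neuron classes (2967 and 2998 CPM in the sham libraries), and NP1- and NP3-like neurons the lowest (1518 and 1682 CPM, and 1449 and 1611 CPM). The sham libraries of these 2 classes and of NF1-like neurons (1634 and 1591 CPM) overlapped. Fatty acid synthesis genes had another order, with 1707 and 1768 CPM in NP2-like neurons and 697 and 721 CPM in NP1-like neurons. Hsd17b7, which reduces a sterol ketone late in the pathway, ranged among neuron classes from 18.0 CPM in NP3-like to 122 CPM in NF2-like neurons as the mean of sham libraries.

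**Figure D1:**
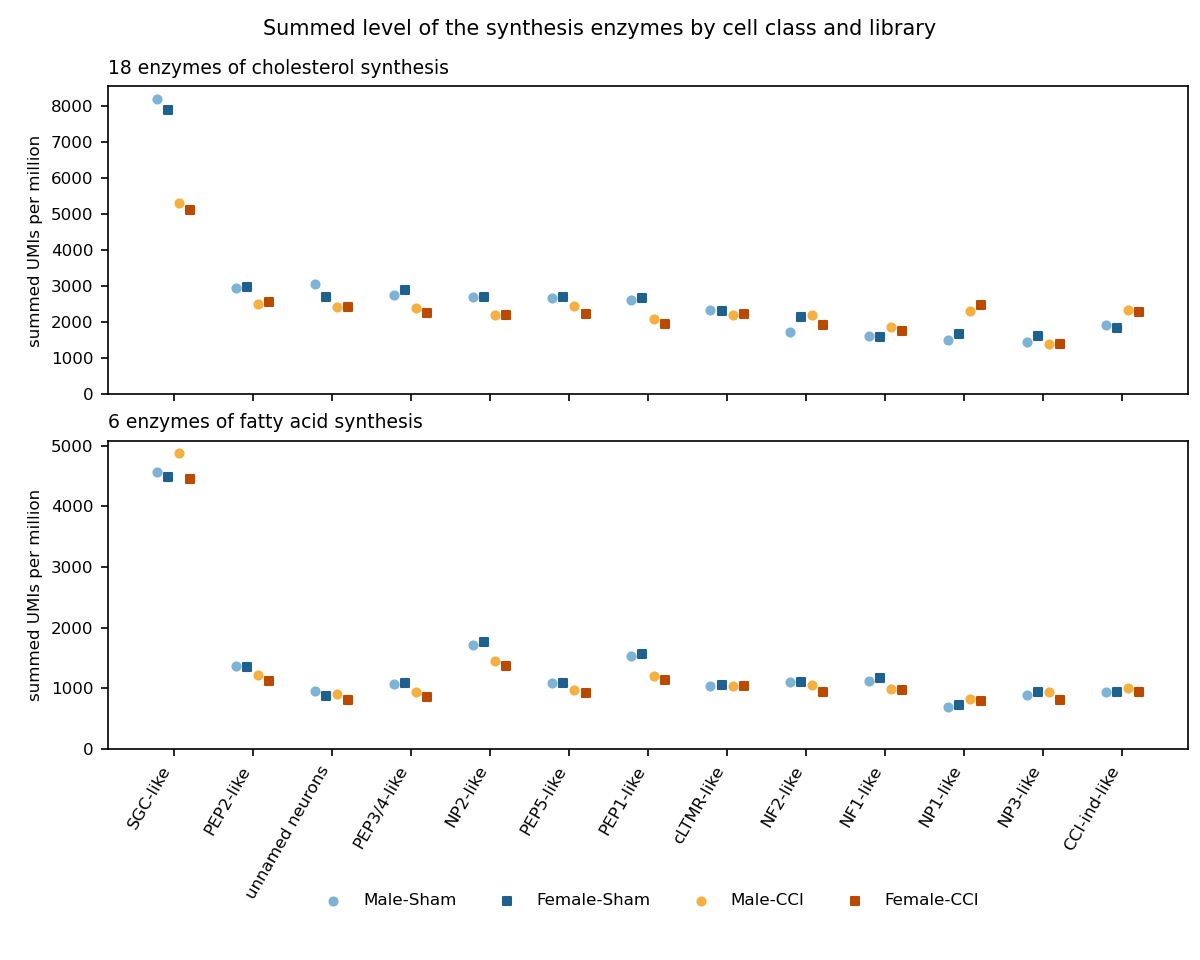
Summed level of the 18 sterol enzymes and of the 6 fatty acid synthesis genes (CPM) in each library, by neuron class and in SGC-like cells. Each point is 1 library, and SGC-like cells of sham (8214 and 7886 CPM for sterol enzymes) lie above all neuron classes.

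After CCI, mRNA of the cholesterol pathway made up a smaller share of the UMIs of SGC-like cells. These cells remained after sorting for GFP, which was meant to enrich neurons, and after a filter on genes per cell. The study states that its filtering was meant to take out small non-neuronal cells, SGCs among them. Whether the result holds for SGCs that were not retained was not tested. Of the 28 genes 15 passed the test, 14 lower and 1 higher, whereas 3.27% of all 7279 genes tested passed it in either direction (edgeR's quasi-likelihood test on summed UMI counts, Benjamini-Hochberg adjusted p below 0.05 and absolute log2 change above 0.5). Sterol enzymes summed to 8214, 7886, 5304, and 5129 CPM, so both CCI libraries lay below both sham libraries. The median log2 change of the 28 genes was −0.55, beside 0.00045 over all genes tested. With a limit of 500 genes per cell, the same 15 genes were called.

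In the mevalonate branch 6 of 7 genes fell. Hmgcs1, which makes HMG-CoA, measured 1924, 1890, 1352, and 1285 CPM (log2 change −0.58 ± 0.10 SE, adjusted p = 0.000306). Idi1, which isomerizes isopentenyl pyrophosphate, measured 747, 871, 426, and 404 CPM (−1.01 ± 0.12, adjusted p = 5.40e-07). In both genes the lowest sham library was well above the highest CCI library. Acat2 (−0.84), Mvk (−0.65), Pmvk (−0.54), and Mvd (−0.71) also fell, and none of them overlapped between sham and CCI libraries. Here and below, such a lack of overlap describes the libraries of the test and is no further evidence. Fdps, which makes farnesyl pyrophosphate, measured 992, 993, 694, and 782 CPM, and its change of −0.47 stayed under the size limit although its adjusted p was 0.00855.

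Of the steps from squalene to cholesterol 7 of 11 genes fell. Msmo1, which oxidizes methyl groups of sterols made from lanosterol, measured 958, 917, 473, and 473 CPM (log2 change −1.03 ± 0.11 SE, adjusted p = 1.04e-07). Fdft1, which makes squalene, measured 444, 337, 225, and 196 CPM (−0.94 ± 0.14, adjusted p = 2.04e-05). The sham and CCI libraries of both genes did not overlap. Sqle (−0.75), which oxidizes squalene, Lss (−0.89), Nsdhl (−0.60), Sc5d (−0.66), and Dhcr7 (−0.80), the last enzyme on the way through 7-dehydrocholesterol, fell as well. Hsd17b7 (−0.56, adjusted p = 0.0676) and Ebp (−0.53, adjusted p = 0.141) missed the p limit, and Cyp51 (−0.29) and Tm7sf2 (−0.27) missed both limits.

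The regulators split. Srebf1 measured 90.4, 85.8, 176, and 144 CPM and rose (0.82 ± 0.17 SE, adjusted p = 0.00262), with both CCI libraries above both sham libraries. Insig1 measured 295, 214, 179, and 117 CPM and fell (−0.83 ± 0.17, adjusted p = 0.00389). Srebf2, which encodes the SREBP factor known for cholesterol genes, measured 132, 163, 112, and 128 CPM and did not pass (−0.33, adjusted p = 0.361). Stard4, a sterol carrier, had a change of −0.50 (adjusted p = 0.162).

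None of the 6 fatty acid synthesis genes passed by edgeR's test. By unadjusted p below 0.05, 2 of 6 passed, and DESeq2 called 0. Scd2, a desaturase, measured 2987, 2909, 3007, and 2861 CPM, with overlapping libraries and a log2 change of −0.05 ± 0.10 SE. Scd1 measured 833, 926, 1166, and 1046 CPM (0.28, adjusted p = 0.179). Fasn measured 324, 266, 293, and 210 CPM (−0.28, adjusted p = 0.348), and Acaca, Elovl6, and Acly had changes of 0.09, −0.14, and −0.35. As a sum the 6 genes stood at 4574, 4487, 4875, and 4452 CPM. The difference between this list and the sterol enzymes was not tested.

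**Figure D2:**
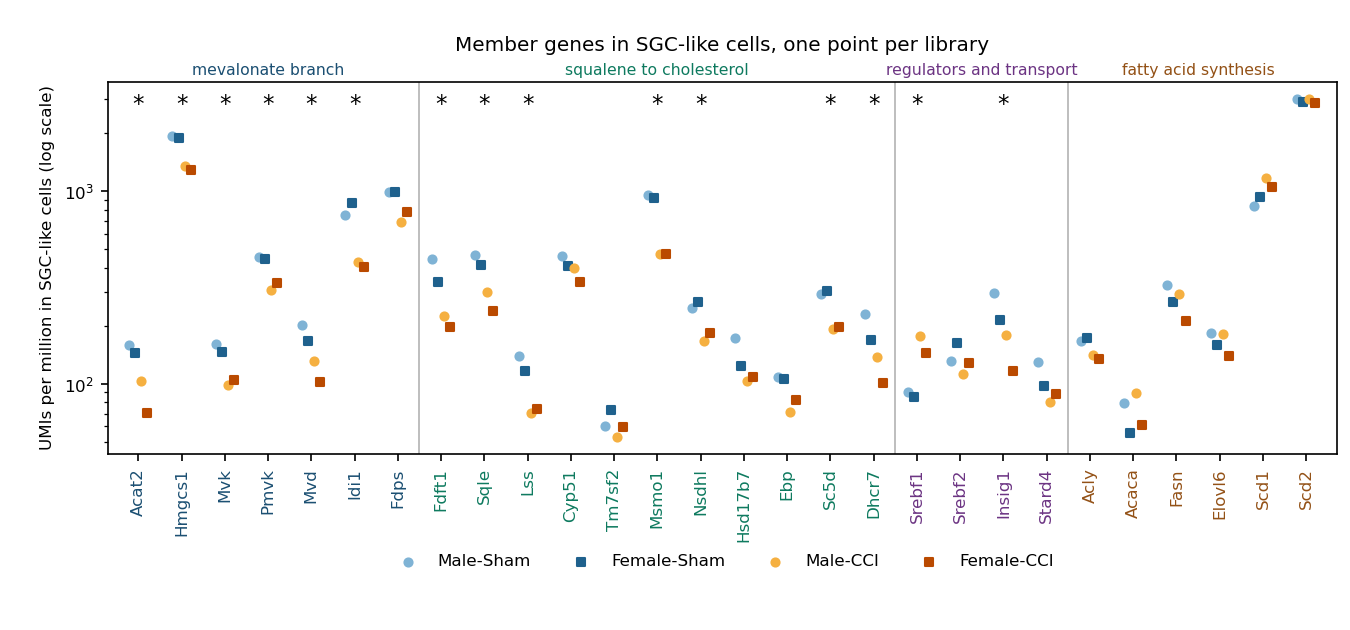
Level of each of the 28 genes in SGC-like cells (CPM, log axis) with 1 point per library, grouped by role. Stars mark the 15 genes that passed edgeR's test, of which 14 were lower in CCI and Srebf1 was higher.

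Between the sexes, 24 of the 28 genes were lower in CCI in both the male and the female pair of libraries, 3 were higher in both, and Scd2 differed in sign. These pairs are the libraries of the test, here and for Sprr1a- neurons below, so such counts are no separate evidence. The share of all genes lower in both pairs is not given here. Counted per cell after thinning each cell to 2000 UMIs, the median number of UMIs of the 18 sterol enzymes was 17, 15, 9, and 9 in SGC-like cells. The quartiles spanned 13 to 20, 11 to 19, 7 to 14, and 6 to 13 UMIs. Both CCI medians were below the lower quartile of either sham library. Without Male-CCI, 10 genes passed and Srebf1 was not among them, and without Male-Sham 11 passed, Fdps among them. Pmvk also lost its call without Male-CCI, Mvd, Dhcr7, and Insig1 without Male-Sham, Nsdhl without Female-Sham or Male-CCI, Lss without Male-Sham or Male-CCI, and Mvk without any one of these 3 libraries. DESeq2 called 5 genes, Hmgcs1, Idi1, Fdft1, Sqle, and Msmo1, each lower. Hmgcs1, Idi1, Fdft1, and Msmo1 were called under each of the 14 settings tried in SGC-like cells.

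Markers of SGCs themselves summed to 131183, 134592, 108502, and 123232 CPM, and none of the 8 was called by edgeR (4 at an unadjusted p below 0.05, 0 by DESeq2). Neuronal RNA in the SGC-like cells moved with the groups in part. Sprr1a was at 2.69, 4.36, 57.4, and 98.8 CPM in them, and Tubb3 at 160, 190, 224, and 349 CPM. The 6 pan-neuronal markers together were at 813, 775, 582, and 1055 CPM, with no marker at 0, and 1 of the 5 that could be tested was called lower. Fibroblast and mural markers were at 356, 411, 529, and 564 CPM, with 1 of 4 tested called higher, immune markers at 558, 222, 176, and 435 CPM, and Schwann cell markers at 18.8, 18.9, 64.5, and 14.4 CPM, with up to 3 of 5 at 0 in a library. Among SGC-like cells without a Tubb3 UMI, a choice made after seeing the data that left as few as 28 cells in a library, 7 genes were called among 90 of 4151 genes. These were Acat2, Hmgcs1, Idi1, Fdft1, Msmo1, Dhcr7, and Insig1, each lower.

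Other genes of lipid metabolism were also tested in SGC-like cells. Of 8 genes of SREBP control and sterol uptake, Mylip, which marks the LDL receptor for degradation, rose from 8.06 and 16.0 to 55.9 and 30.6 CPM (1.93). These Mylip levels rest on few UMIs, since the sums of SGC-like cells held 556406 to 1117022 UMIs. Of 13 genes of sterol efflux, storage, and transport, Abca1, the cholesterol exporter, rose from 97.6 and 103 to 141 and 191 CPM (0.67). Of 15 other genes of fatty acid synthesis, Acss2, which makes acetyl-CoA from acetate, fell (−0.68). SEs, adjusted p-values, and DESeq2 results of Mylip, Abca1, and Acss2 are not given here. All 10 fatty acid oxidation genes tested had a negative change, with a median of −0.20, and none was called by edgeR (1 at an unadjusted p below 0.05, 0 by DESeq2).

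In Sprr1a- neurons 5 of the 28 genes fell, whereas 4.48% of all 16407 genes tested were called in either direction. All 28 had a negative log2 change, Srebf1, Acaca, and Scd1 included, whose changes in SGC-like cells were positive, with a median of −0.28 beside −0.00086 over all genes, and 25 were lower in both sexes. Mvd, which makes isopentenyl pyrophosphate, measured 50.4, 54.8, 34.0, and 33.4 CPM (log2 change −0.66 ± 0.05 SE, adjusted p = 0.00296). Insig1 measured 39.5, 39.1, 27.8, and 23.8 CPM (−0.63 ± 0.07, adjusted p = 0.00579). Dhcr7 measured 46.8, 49.6, 33.7, and 30.2 CPM (−0.62), Msmo1 223, 234, 164, and 150 CPM (−0.57), and Idi1 199, 206, 144, and 139 CPM (−0.54). Sham and CCI libraries did not overlap in any of these 5, and all 5 were also called lower in SGC-like cells. Srebf1, called higher in SGC-like cells, measured 15.9, 16.0, 14.7, and 14.8 CPM in Sprr1a- neurons and was not called. The difference between SGC-like cells and Sprr1a- neurons was not tested. Acat2 (−0.48) came next, under the size limit, whereas Fdps (−0.02), Acaca (−0.03), and Hsd17b7 (−0.03) had the smallest changes. Leaving out a library gave 5 or 6 calls.

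SGC markers in Sprr1a- neurons summed to 1314, 1643, 1110, and 1168 CPM, lower in both CCI libraries. Since the 28 genes are abundant in SGCs, the fit was repeated, after seeing these values, on neurons without a Fabp7 UMI, Fabp7 being an SGC marker. The same 5 genes were called there, with changes from −0.69 for Mvd to −0.54 for Idi1. Among the other lists in Sprr1a- neurons, Abca1 rose from 19.1 and 20.2 to 28.9 and 38.5 CPM (0.76), and Acacb (−0.83) and Acsl3 (−0.54) fell. No gene of fatty acid oxidation was called by edgeR (3 of 12 at an unadjusted p below 0.05, 0 by DESeq2). The Sprr1a- neurons of the CCI libraries also differed in makeup, with 147 of 1350 and 162 of 1848 cells in the NP2-like class against 459 of 3239 and 590 of 5254 in sham, so the classes were compared one by one.

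**Figure D3:**
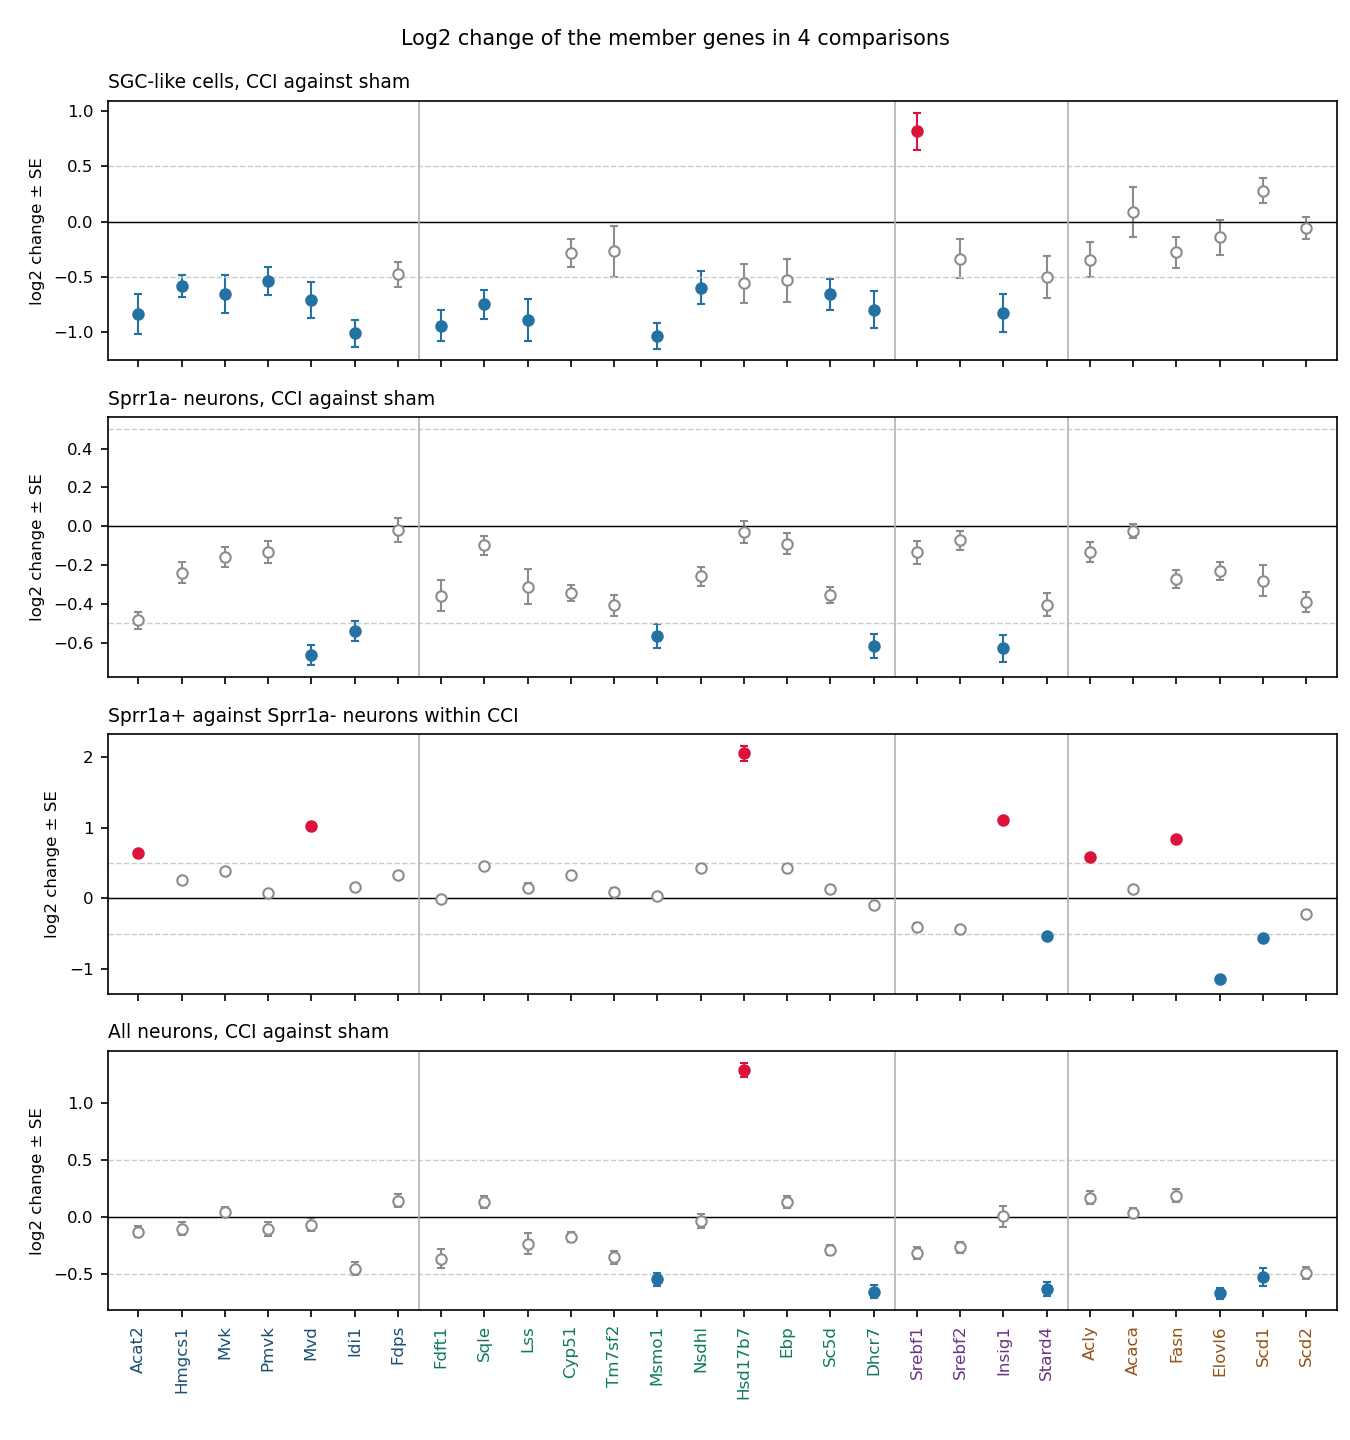
Log2 change of each of the 28 genes with its SE, in 4 panels: SGC-like cells, CCI against sham, Sprr1a- neurons, CCI against sham, Sprr1a+ against Sprr1a- neurons of CCI, and all neurons, CCI against sham. Dashed lines are at ±0.5. Filled points passed edgeR's test, red for higher and blue for lower, and open grey points did not, with 15, 5, 9, and 6 filled points in the panels from top to bottom.

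Within classes the most genes were called in Sprr1a- neurons of the NP2- and PEP1-like classes. Summed over the 18 sterol enzymes, the level was 2693, 2717, 2196, and 2212 CPM in NP2-like and 2622, 2681, 2089, and 1947 CPM in PEP1-like neurons. It was also lower in both CCI libraries of PEP3/4-like (2776, 2912, 2391, and 2267 CPM) and PEP2-like neurons (2967, 2997, 2525, and 2580 CPM), where fewer genes passed the size limit. With Sprr1a+ cells included, the sum was lower in both CCI libraries of PEP5-like neurons too (2688, 2711, 2459, and 2244 CPM). The same held for NP3-like neurons (1449, 1611, 1406, and 1391 CPM). In NP2-like neurons 11 genes fell, against 4.50% of all genes called, and in PEP1-like neurons 12 fell, against 5.29%. Acat2, Cyp51, Dhcr7, Idi1, Insig1, Lss, Msmo1, Mvd, Sc5d, and Stard4 were called in both. Insig1 measured 37.0, 34.9, 20.1, and 16.8 CPM in NP2-like neurons (log2 change −0.98 ± 0.09 SE, adjusted p = 2.47e-06) and 45.1, 40.6, 24.0, and 20.6 CPM in PEP1-like neurons (−0.92 ± 0.09, adjusted p = 0.000174). Mvd measured 70.8, 70.9, 43.8, and 40.0 CPM in NP2-like (−0.78) and 60.8, 67.5, 33.7, and 27.1 CPM in PEP1-like neurons (−1.06). Every CCI library lay below every sham library for these 2 genes in both classes. Fasn fell in NP2-like (−0.58), and Tm7sf2 (−0.60) and Scd2 (−0.51) in PEP1-like neurons.

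Other classes gave fewer calls. PEP3/4-like neurons had 6 lower genes (3.48% of all genes called), Acat2, Mvd, Idi1, Msmo1, Dhcr7, and Insig1. PEP2-like (4.25%) and PEP5-like neurons (3.30%), the latter with the cold channel Trpm8 among their markers, had 3 each, Mvd, Dhcr7, and Insig1 in both. NP3-like neurons had 2 (2.68%), Msmo1 and Insig1, and cLTMR-like neurons 1 (1.72%), Insig1. Insig1 thus fell in 7 classes, with changes from −0.98 to −0.57. In NP1-like neurons 1 gene was called (3.97%), Fasn, which rose from 35.5 and 35.4 to 56.4 and 67.3 CPM (0.79 ± 0.17 SE, adjusted p = 0.00959). A cluster led by Cd207, with Sprr1a at 3029 CPM, held 1 of 83 and 8 of 71 of these Sprr1a- cells in sham. In CCI it held 5 of 31 and 12 of 35, so cluster makeup and surgery cannot be told apart for Fasn. NF1-like (0.994%) and NF2-like neurons (2.04%) had no call by edgeR, with 11 and 9 genes at an unadjusted p below 0.05 and 0 called by DESeq2 in either class. The share of all genes at that unadjusted limit is not given here, so the 11 and 9 genes cannot be set against it. Both calls in NP3-like neurons were lost without TMM factors, and DESeq2 did not call Fasn in NP1-like neurons. The 39 calls over 10 classes became 59 without Male-CCI. Differences between classes were not tested.

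SGC markers moved with some of these classes. In PEP1-like Sprr1a- neurons all 8 SGC markers fell, with sums of 1408, 1394, 401, and 570 CPM, in NP2-like neurons 2 of 8 did (388, 507, 274, and 297 CPM), in PEP2-like 3 of 8 (3526, 2745, 2001, and 1844 CPM), and in PEP3/4-like 1 of 8 (2662, 2941, 2008, and 2207 CPM). One of the 3 clusters within PEP3/4-like neurons had Fabp7 among its leading genes, at 1610 CPM. Among PEP1-like neurons, the cluster led by Oprk1 had Fabp7 at 1220 CPM. It held 97 of 494 and 200 of 894 Sprr1a- cells in sham and 10 of 187 and 31 of 298 in CCI. In NP2-like neurons the cluster led by Prkcq held 43 of 459 and 24 of 590 Sprr1a- cells in sham. In CCI it held 1 of 147 and 3 of 162. Cluster makeup and a change within a cluster cannot be told apart in these classes. Among neurons without a Fabp7 UMI, 13 genes were called lower in NP2-like, 10 in PEP1-like, 6 in PEP3/4-like, and 3 in PEP2-like neurons, whereas the Fasn call in NP1-like neurons was lost. Shares of all genes called among neurons without a Fabp7 UMI are not given here.

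**Figure D4:**
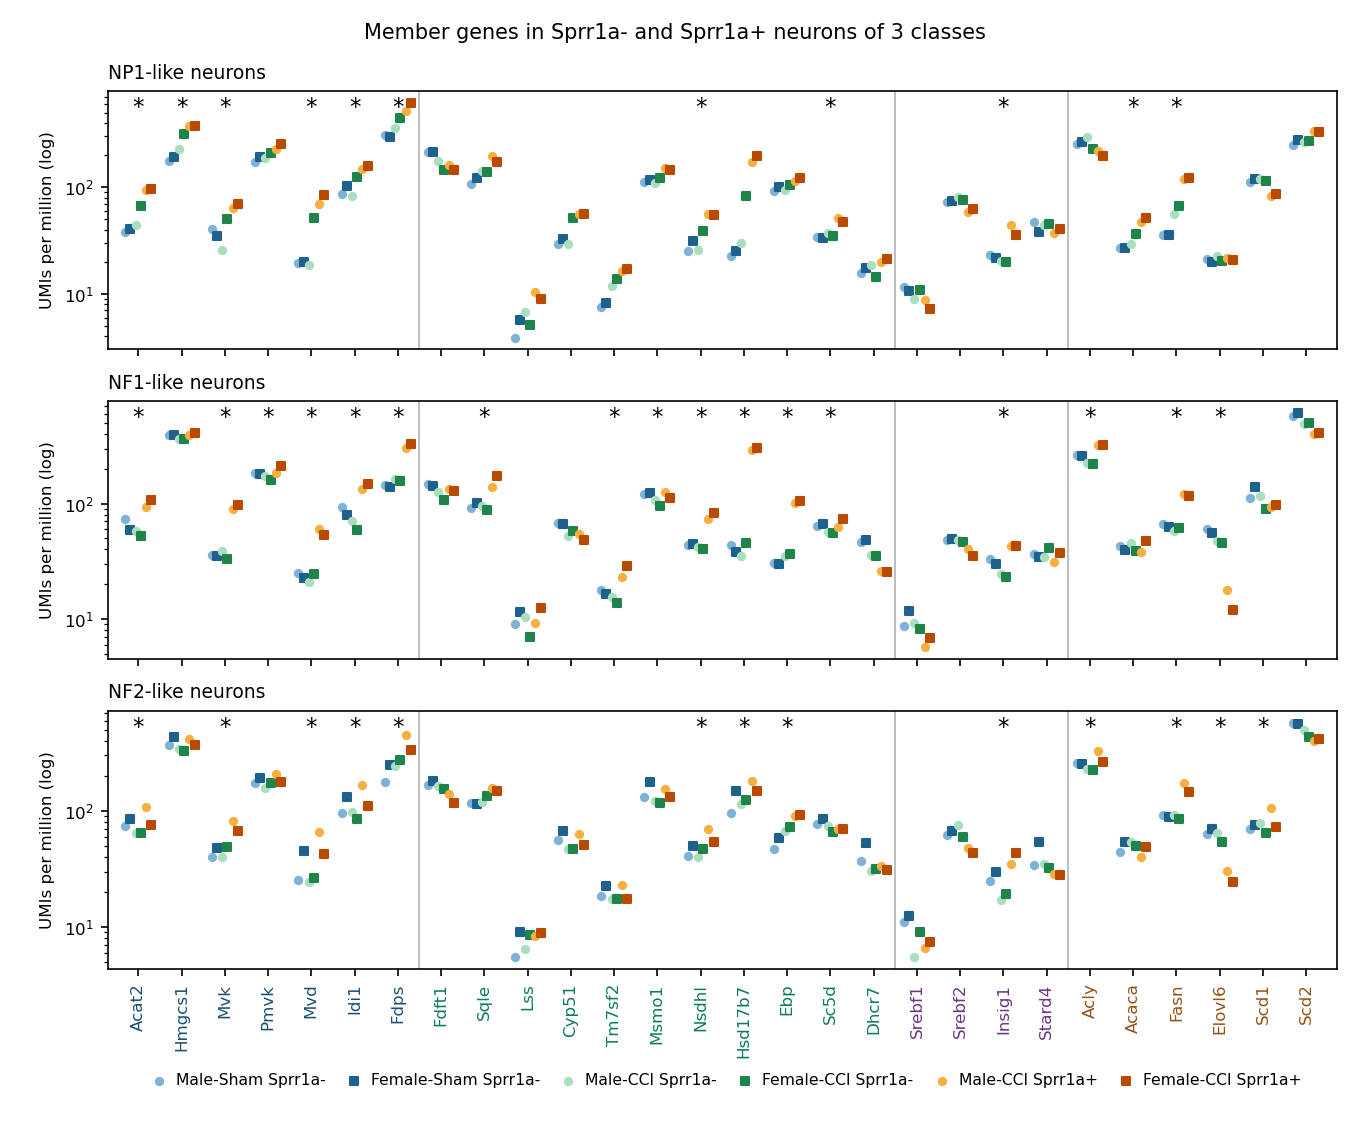
Level of each of the 28 genes (CPM, log axis) in Sprr1a- neurons of sham, Sprr1a- neurons of CCI, and Sprr1a+ neurons of CCI within NP1-, NF1-, and NF2-like classes, with 1 point per library. Stars mark genes called between Sprr1a+ and Sprr1a- neurons of CCI, and Hsd17b7 in NF1-like neurons reaches 292 and 303 CPM in Sprr1a+ against 35.3 and 45.7 CPM in Sprr1a- neurons.

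Sprr1a+ neurons were next compared with Sprr1a- neurons of the same CCI libraries, with library as a block. The Sprr1a- neurons of CCI were not free of injury markers. Against Sprr1a- neurons of sham, Atf3 was higher by edgeR (log2 change 0.62, adjusted p = 0.00955), and Gal was not called (0.57, adjusted p = 0.0527). Sprr1a itself was at 0.470, 1.24, 23.1, and 27.0 CPM in Sprr1a- neurons. Over all neurons, 6 genes were higher in Sprr1a+ neurons and 3 were lower, at a background of 45.5% of all 16242 genes called, so the 9 of 28 called lay below this background. Hsd17b7 was at 35.4 and 39.2 CPM in Sprr1a- and at 146 and 129 CPM in Sprr1a+ neurons of Male-CCI and Female-CCI (log2 change 2.05 ± 0.10 SE, adjusted p = 0.000900). Insig1 rose from 27.8 and 23.8 to 53.4 and 44.9 CPM (1.10), Mvd from 34.0 and 33.4 to 63.1 and 58.9 CPM (1.03), and Fasn from 89.5 and 86.6 to 143 and 135 CPM (0.83). Acat2 (0.64) and Acly (0.59) were also higher. Elovl6 fell from 56.2 and 54.1 to 23.2 and 21.1 CPM (−1.14), and Scd1 (−0.56) and Stard4 (−0.53) were lower. CCI-ind-like clusters held 1250 of 1467 and 1559 of 1790 Sprr1a+ neurons of CCI, but 41 of 1350 and 74 of 1848 Sprr1a- neurons, so class and injury cannot be told apart in this comparison. Without TMM factors the median of all genes moved by −0.17, and 4 genes were higher and 5 lower. Of the 8 SGC markers 1 was called higher.

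Within 3 classes Sprr1a+ and Sprr1a- neurons of CCI could be compared. Of the classes other than CCI-ind-like, only NP1-, NF1-, and NF2-like neurons had at least 10 Sprr1a+ and 10 Sprr1a- cells in each CCI library. In NP1-like neurons (98 and 107 Sprr1a+ cells, 31 and 35 Sprr1a- cells) 11 genes were called, all higher, against 22.6% of all genes called. In NF1-like neurons (54 and 29 against 64 and 56 cells) 16 were higher and 1 lower, against 43.1%, and in NF2-like neurons (58 and 61 against 42 and 66 cells) 12 were higher and 1 lower, against 32.5%. The median log2 change of the 28 genes was 0.49, 0.54, and 0.46, beside −0.0049, −0.041, and −0.0066 over all genes. Acat2, Mvk, Mvd, Idi1, Fdps, Nsdhl, Insig1, and Fasn were higher in all 3 classes. DESeq2 called 5, 14, and 9 genes in NP1-, NF1-, and NF2-like neurons, and its shares of all genes are not given here.

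In 2 of these classes the clusters behind the Sprr1a+ and Sprr1a- cells differed. NP1-like neurons were 2 clusters, and the one led by Cd207 held 97 and 104 of the Sprr1a+ cells but 5 and 12 of the Sprr1a- cells in Male-CCI and Female-CCI, whereas the one led by Sst held 1 and 3 Sprr1a+ and 26 and 23 Sprr1a- cells. Cluster and injury therefore cannot be told apart in NP1-like neurons. NF1-like neurons were also 2 clusters, and the one led by Pvalb, a marker of proprioceptors, held 28 and 21 of the Sprr1a- cells and 0 and 1 of the Sprr1a+ cells. Without that cluster, a choice made after seeing the data, 16 genes of NF1-like neurons were higher and 1 lower in Sprr1a+ cells, against 41.3% of all genes, and 15 of the 17 called were those called with it. NF2-like neurons were 1 cluster.

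Hsd17b7 had the largest change of the 28 genes in NF1-like neurons. It measured 35.3 and 45.7 CPM in Sprr1a- and 292 and 303 CPM in Sprr1a+ NF1-like neurons of Male-CCI and Female-CCI (log2 change 3.20 ± 0.11 SE, adjusted p = 3.52e-26), and the change was 3.69 without the cluster led by Pvalb. NF2-like neurons started higher, at 115 and 125 CPM, and reached 180 and 149 CPM (0.64 ± 0.14, adjusted p = 0.00134). In NP1-like neurons the values were 29.9 and 83.2 CPM in Sprr1a- and 171 and 194 CPM in Sprr1a+ cells (1.82, adjusted p = 0.0841), where the 2 Sprr1a- sums lay far apart. In NF1-like neurons Ebp rose from 34.8 and 36.8 to 102 and 106 CPM (1.84), Mvd from 20.8 and 24.7 to 60.7 and 53.0 CPM (1.67), and Mvk, the mevalonate kinase, from 39.1 and 32.9 to 90.6 and 97.9 CPM (1.65).

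Fdps rose from 358 and 448 to 514 and 616 CPM in NP1-like (0.56), from 162 and 158 to 305 and 327 CPM in NF1-like (1.27), and from 243 and 272 to 447 and 334 CPM in NF2-like neurons (0.78). Fasn rose by 1.04, 1.31, and 1.03 on the log2 scale in these classes, and Insig1 by 1.05, 1.12, and 1.30. Elovl6, which lengthens palmitate, fell in NF1-like (from 47.4 and 45.4 to 17.7 and 11.8 CPM, −1.27) and NF2-like neurons (from 64.8 and 53.4 to 30.4 and 24.6 CPM, −0.91). In NP1-like neurons, where it was low in all cells (20.5 to 22.6 CPM in CCI), its change was 0.04. Scd1 rose in NF2-like neurons (0.50) although it was lower in Sprr1a+ neurons as a whole. Srebf1 and Srebf2 were called in none of the 3 classes by edgeR. Of the SGC markers, 1 of 8 tested in NP1-like neurons was called, lower. Without TMM factors, which moved the median of all genes by −0.06, −0.30, and −0.19, the calls were 8 higher in NP1-like, 13 higher and 1 lower in NF1-like, and 6 higher and 2 lower in NF2-like neurons.

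The same Sprr1a+ neurons of CCI were set against Sprr1a- neurons of sham in the same 3 classes. In NP1-like neurons 16 genes were called, all higher (41.2% of all genes called), in NF1-like neurons 13 were higher and 2 lower (45.7%), and in NF2-like neurons 9 were higher and 1 lower (39.9%). Hsd17b7 in NP1-like neurons measured 22.8 and 25.4 CPM in Sprr1a- neurons of sham and 171 and 194 CPM in Sprr1a+ neurons of CCI (2.99 ± 0.13 SE, adjusted p = 5.18e-24), with log2 changes of 3.19 in NF1-like and 0.69 in NF2-like cells. Mvd rose from 19.5 and 20.0 to 69.8 and 83.6 CPM in NP1-like neurons (2.02), and Fasn from 35.5 and 35.4 to 120 and 123 CPM (1.83). Dhcr7 (−0.53) and Elovl6 (−1.54) were lower in NF1-like cells, and Elovl6 (−1.02) was lower in NF2-like cells. In NP1-like neurons the cluster led by Cd207 held 1 and 8 of the 83 and 71 Sprr1a- cells of sham. Both comparisons of Sprr1a+ neurons use the same sums of CCI, so they are not independent. The share of the genes described here that was called lay above that of all genes in NP1- and NF1-like neurons. In NF2-like neurons it lay below that of all genes. Over the 3 classes 38 calls were higher and 3 lower, and a pooled share of all genes is not given here. Without TMM factors, which moved the median of all genes by −0.06, −0.34, and −0.24, 32 were higher and 7 lower. With any Sprr1a UMI as the limit, where more classes could be tested, more calls were lower than higher.

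Few Sprr1a+ neurons were found in sham. In CCI-ind-like neurons, which numbered 45 and 137 in the sham and 1291 and 1633 in the CCI libraries, the sterol enzyme sum was 1936, 1856, 2337, and 2285 CPM. In Sprr1a+ neurons of all classes it was 1908, 1906, 2371, and 2309 CPM. These values are a description, since 42 and 144 Sprr1a+ neurons of sham were not compared by a test.

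Over all neurons, where Sprr1a+ and Sprr1a- cells are mixed, 6 of the 28 genes were called, below the 27.8% of all 17233 genes. Hsd17b7 rose from 38.2 and 38.3 to 95.1 and 84.5 CPM (log2 change 1.29 ± 0.06 SE, adjusted p = 1.95e-05). Dhcr7 (−0.65), Stard4 (−0.63), Elovl6 (−0.67), Msmo1 (−0.54), and Scd1 (−0.52) fell. Scd2, at 601, 621, 430, and 410 CPM, was just under the size limit (−0.49). The median change of the 28 genes was −0.15, beside −0.0061 over all genes, and 9 changes were positive. Without Female-CCI, Msmo1 and Scd1 had changes of −0.49 and −0.42 and were not called. A change in the shares of the neuron classes and a change within a class cannot be told apart in these sums.

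Genes of the other lists were called over all neurons in shares to be read against the 27.8% of all genes called. Of 15 genes of sterol efflux, storage, and transport, Abca1 rose from 21.4 and 24.8 to 128 and 125 CPM (2.51) as 1 of 2 that rose, and Abcg1 (−0.84), Apoe (−0.60), itself an SGC marker, and Abcg4 (−0.54) fell. Among genes of SREBP control and sterol uptake, Vldlr, a lipoprotein receptor, rose from 5.58 and 6.72 to 18.9 and 19.1 CPM (1.68). Of 19 other fatty acid synthesis genes, Acacb (−1.28), Acsl3 (−0.61), and Mid1ip1 (−0.58) were among 4 that fell, and Scd3 rose (0.93) at a level of 0.116 to 0.215 CPM. Of 12 fatty acid oxidation genes Acadl rose (0.56) and Acaa2 fell (−0.53). The shares of these last 2 lists lie below that of all genes.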

How the data were processed

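UMI counts per gene and cell were deposited by the authors as filtered matrices for the 4 libraries, aligned to mm10 with Cell Ranger (version 2.1.1 in the submitters' processing notes, 3.0.2 in the matrix headers). The counts were used as deposited, without normalization. Doublets were scored with Scrublet, and because its automatic threshold marked at most 121 cells in a library, the highest scores were removed in the numbers that the study gives for each library. Cells with at least 1500 genes and at most 10% mitochondrial UMIs were integrated and clustered with Seurat 5.3.0 (3000 variable genes, 20 components, resolution 0.8), and clusters were named from marker genes. The cell classes were rebuilt and may differ from those of the study. Neurons with a normalized Sprr1a value above 1 were Sprr1a+.

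UMIs were summed per library and class where each sum held at least 10 cells, and tested across all genes with edgeR 4.0.16 (quasi-likelihood, robust, TMM factors, filter on low counts) in R 4.3.3, with library as a block within CCI. A gene was called at a Benjamini-Hochberg adjusted p below 0.05 and an absolute log2 change above 0.5. DESeq2 1.42.0 was an alternative, and the scripts were tested on simulated data. Alternatives without TMM factors, without the filter, with sex as a block, without each library, with doublets kept, with other cell filters, clusterings, and Sprr1a limits, and with thinned cells were run, and cells without a Fabp7 or a Tubb3 UMI and NF1-like neurons without 1 of their clusters were added after seeing the data. Genes of the other lists were named when they were among the 4 largest called changes of a list in all neurons or SGC-like cells, and some genes of these lists are not reported here. The 28 genes and all lists were chosen with earlier results of these data known. Neuron sums held 159941070 to 189489772 UMIs per library, and sums of SGC-like cells 556406 to 1117022 UMIs, so counts of the same gene are less precise in SGC-like cells.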

Additional observations from a re-analysis of the deposited data

Results flagged for a closer look

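For 2 genes the male and the female pair of libraries changed in opposite directions by more than counting error. Insig1 over all neurons had a log2 ratio of CCI over sham of 0.0692 in males and −0.180 in females. Hsd17b7 in Sprr1a- neurons had −0.0805 in males and 0.0629 in females. With 1 library per sex and surgery, the difference between the sexes was not tested across animals.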

How the results depend on the processing

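In SGC-like cells, 351 of 392 values of single genes under an alternative kept their direction and their side of the threshold, 32 lost the call, 7 gained it, and 2 changed sign; over all neurons these numbers were 402 of 420, 2, 6, and 10. Of the 28 genes, DESeq2 called 5 in SGC-like cells (43 genes in all against 238), cells without a Tubb3 UMI gave 7 (90 genes), and leaving out a library gave 10 to 17. With any Sprr1a UMI as the limit, calls within CCI were 5 in place of 9 over all neurons and 26 in place of 41 by class, over 9 classes. By class within CCI, keeping doublets gave 68 calls over 9 classes and no integration 24 over 2 classes. Where the Sprr1a+ neurons were set against sham, keeping doublets gave 82 calls (47 higher, 35 lower) in place of 41. Any UMI gave 68 (26 higher, 42 lower), and leaving out a library gave 37 to 44. More classes could be tested with doublets kept and with any UMI. For these settings, calls in the classes of the main setting alone and shares of all genes are not given here. Sprr1a- neurons by class gave 26 to 59 calls when a library was left out, with 59 without Male-CCI. Leaving out a library gave 4 to 8 calls over all neurons and 5 or 6 in Sprr1a- neurons; within CCI it left 1 pair and no test. Over all genes, thinned neurons gave 2731 calls against 4798, and 355 against 735 in Sprr1a- neurons, and any Sprr1a UMI gave 4782 against 7394 within CCI. Changes that turned sign stayed under the size limit. Over all neurons these were Mvk without TMM factors (−0.00920) and thinned (−0.0103), Nsdhl without a library (−0.0985 to 0.0226, above 0 without Female-Sham at 0.0154 or Female-CCI), Insig1 without TMM factors (−0.0489), without the filter (−0.00234), without a library (−0.143 to 0.140, with −0.00665 without Female-Sham), and thinned (−0.127), and Acaca without TMM factors (−0.0157); in SGC-like cells Acaca ranged from −0.195 without Male-CCI to 0.374 without Male-Sham, with −0.0965 without Female-Sham. The cause was not tested. Libraries share a sex but no mouse or litter across surgeries, so sex is no pairing; with sex as a replicate block the calls were 6 over all neurons, 5 in Sprr1a- neurons, 43 in Sprr1a- neurons by class, 41 in Sprr1a+ neurons against sham, and 16 in SGC-like cells. Without the replicate block within CCI they were 9 over all neurons and 39 by class. The sums of SGC-like cells limit what could be called there.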
